A study of Homo sapiens with 29 samples.

Results

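Expression of 10 genes that set the identity of lung fibroblasts, or that receive the platelet-derived growth factor (PDGF) signal, was followed through oncogene-induced senescence and SMARCA4 knockdown. The members were taken by name: the basic helix-loop-helix (bHLH) factors TCF21, TWIST1 and TWIST2, the homeobox factors PRRX1 and MEOX2, the forkhead factor FOXF1, the T-box factors TBX4 and TBX5, and the receptors PDGFRA and PDGFRB. All 10 were found among the 28266 gene symbols counted. Of the 10, 8 had enough reads to be tested, and TBX4 and MEOX2 did not.

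The cells were IMR90 ER:RAS, an established human lung fibroblast line made to express, from a retrovirus, RASG12V joined to the estrogen receptor, and every group held this construct. 4-hydroxytamoxifen (4OHT) switches the fusion on and DMSO is its solvent. All cells were transfected with siRNA and collected on day 7. DMSO_siNT received DMSO and a non-targeting siRNA, 4OHT_siNT received 4OHT and a non-targeting siRNA, and 4OHT_siSMARCA4 received 4OHT and an siRNA against SMARCA4, the ATPase of the SWI/SNF chromatin remodelling complex, with siRNAs numbered 2 and 4 in each group. The comparison of the first 2 groups asks what RAS-induced senescence does to the 10 genes, and that of the last 2 what SMARCA4 loss adds. There were 6 libraries in each group, and nothing in the labels says whether they came from separate cultures, so p-values measure the spread between these libraries, which may be technical.

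Transcription factors of these families keep mesenchymal cells of the embryonic lung in their lineage. TCF21 marks lipid-bearing and perivascular fibroblasts, PRRX1 and the TWIST factors are general mesenchymal regulators, FOXF1 responds to hedgehog signals from the airway epithelium, and TBX4 and TBX5 pattern the lung bud mesenchyme. PDGFRA and PDGFRB are receptor tyrosine kinases that bind PDGF dimers and signal through RAS, and PDGFRB is also known as a marker of pericytes.

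TCF21, TBX5 and PDGFRB were the members called lower in both steps, from DMSO_siNT to 4OHT_siNT and from 4OHT_siNT to 4OHT_siSMARCA4, and the sequences before their start sites are shown for that reason. RefSeq promoter windows on GRCh38.p14 were matched for 8 of the 10 genes, and TWIST1 and FOXF1 had no entry. The bases before the start are printed, 250 for TCF21 on chr6:133888863-133889112 (plus strand), 250 for TBX5 (the window of its outermost start of 2) on chr12:114408443-114408692 (minus strand) and 223 for PDGFRB on chr5:150155873-150156095 (minus strand, without the bases inside the GENCODE gene), each 5′ to 3′ on the gene's strand. Capitals mark matches to the motifs searched.
TCF21: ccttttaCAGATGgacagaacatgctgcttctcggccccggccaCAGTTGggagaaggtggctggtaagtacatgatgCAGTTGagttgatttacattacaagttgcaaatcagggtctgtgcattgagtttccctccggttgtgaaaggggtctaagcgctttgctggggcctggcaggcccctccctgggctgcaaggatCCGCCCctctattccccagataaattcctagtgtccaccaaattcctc
TBX5: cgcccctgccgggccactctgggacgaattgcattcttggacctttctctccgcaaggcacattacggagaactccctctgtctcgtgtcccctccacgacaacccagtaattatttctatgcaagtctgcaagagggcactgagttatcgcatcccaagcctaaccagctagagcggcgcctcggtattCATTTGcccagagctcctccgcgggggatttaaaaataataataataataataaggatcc
PDGFRB: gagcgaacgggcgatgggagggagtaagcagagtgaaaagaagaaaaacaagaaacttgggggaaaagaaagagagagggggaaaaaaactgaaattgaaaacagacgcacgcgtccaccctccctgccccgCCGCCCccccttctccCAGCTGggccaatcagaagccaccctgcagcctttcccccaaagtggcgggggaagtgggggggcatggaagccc

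The motifs searched on both strands were TGANTCA (the AP-1 site), CANNTG (the E-box, which bHLH factors bind), GGGCGG (the GC box) and TATAAA (the TATA box), and none of these overlapped another in the windows shown. The TCF21 window held 3 E-boxes and 1 GC box, the TBX5 window 1 E-box, and the PDGFRB window 1 E-box and 1 GC box. Among 35116 RefSeq windows of 250 bases, 61.8% held an E-box and 42.6% a GC box, so these matches are common. AP-1 sites stood in 6.57% of windows and TATA boxes in 10.7%, and neither set of letters was in these 3 windows.

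Total counts per library were 9657309 to 18039313, and 13136 genes passed the filter on low counts. SMARCA4 was at 217 ± 15.3 CPM (counts scaled by library size, mean ± SD, n = 6) in DMSO_siNT, 301 ± 20.9 in 4OHT_siNT and 99.03 ± 27.6 in 4OHT_siSMARCA4, and every knockdown library lay below every 4OHT_siNT library. DMSO_siNT library 4-2V stood apart: ESR1, which holds the receptor part of the fusion, was at 29.5 CPM there against a group median of 1101 CPM, and HRAS was at 436 CPM against a median of 2323 CPM. Results are therefore also given without it. Fits within siRNA number 4 alone include it, and it enters their estimate of spread. The libraries carry set names ending in V or VM, whose meaning is not stated. All 4OHT_siNT libraries were VM, DMSO_siNT had 3 V and 3 VM, and 4OHT_siSMARCA4 had 3 V and 3 VM. The column name of 1 of these VM libraries, 2-1VM of 4OHT_siSMARCA4, matched no sample title, so values within VM sets are given where they differ both for the 2 knockdown libraries with a title and with 2-1VM added. With the set name as a replicate block, over the 17 libraries with a title, none of the 4 knockdown calls given for TCF21, TWIST2, TBX5 and PDGFRB was made (edgeR adjusted p = 0.133, 0.174, 0.051 and 0.0539), nor the senescence calls of TWIST2 and PDGFRB (edgeR adjusted p = 0.242 and 0.328). That fit called 236 of 13323 genes with knockdown and 4356 with senescence, against 1397 and 6935 of 13136 without the block. With 2-1VM added to the block by its column name, a choice made after seeing the data, the knockdown calls of TWIST2, TBX5 and PDGFRB were made and that of TCF21 was not (edgeR adjusted p = 0.0228, 0.00462, 0.00535 and 0.134). This second block called 974 of 13136 genes with knockdown. Of the fibroblast markers, 12 of 12 were detected in every group at a summed level of 13570 to 46544 CPM. Immune markers summed to 45.3 to 75.02 CPM and epithelial markers to 34.1 to 144 CPM over all libraries. Of the 9 epithelial markers, 5 were under 1 CPM in every DMSO_siNT library and 6 in every library of each 4OHT group. Of the 7 immune markers, 6 were under 1 CPM in every library. Among these low genes, the lung epithelial factor NKX2-1, the surfactant gene SFTPC, the leukocyte gene PTPRC and the B cell gene MS4A1 were at a mean of 0.106 CPM or less in each group. The sums came from the remaining genes of each list.

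Levels can be compared between genes only per length of transcript, as CPM per kilobase (kb) of the canonical GENCODE transcript. On this scale FOXF1 was the highest member in each group, at a mean of 74.9 CPM per kb in DMSO_siNT, 94.3 in 4OHT_siNT and 115 in 4OHT_siSMARCA4. PDGFRA (34.2), PDGFRB (34.1) and TWIST2 (26.2) followed in DMSO_siNT, and the ranges of these neighbours overlapped. The medians there were 27.1 for PDGFRA and 37.5 for PDGFRB, and library 4-2V was the highest for PDGFRA and the lowest for PDGFRB. TCF21 (16.98), PRRX1 (14.9) and TWIST1 (14.0) came next and overlapped in turn, TBX5 was lower at 7.12, and TBX4 was at 0.259. In 4OHT_siSMARCA4 the order differed in the receptors: TWIST2 (29.5) and PDGFRA (26.03), whose ranges overlapped, were both above PDGFRB (9.73), which overlapped TWIST1 (11.6) and PRRX1 (5.92). The position of TCF21 depends on its length, since the longest coding transcript of TCF21 has 3010 bases against 1280 in the canonical one, and its rank in DMSO_siNT moves from 5 to 7 with the longer one.

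**Figure D1:**
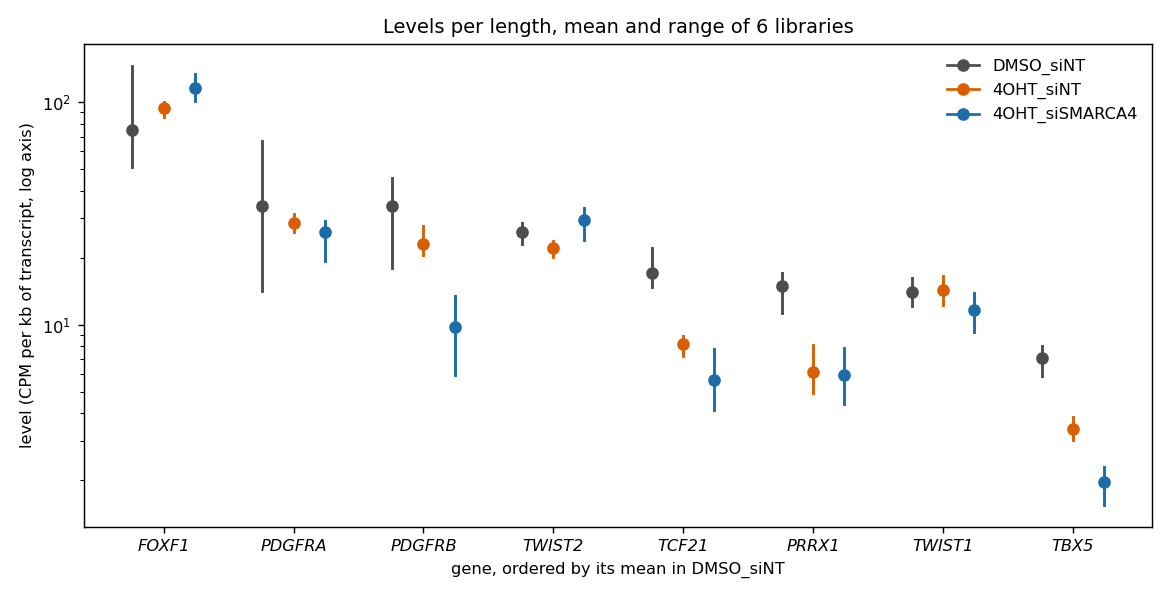
Mean (points) and range (lines) of CPM per kb of canonical transcript over 6 libraries in each group, on a log axis, for the 8 genes tested, ordered by their mean in DMSO_siNT. FOXF1 is the highest in each group. The means of PDGFRB and PDGFRA are 34.1 and 34.2 in DMSO_siNT (medians 37.5 and 27.1), and 9.73 and 26.03 in 4OHT_siSMARCA4.

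Senescence lowered 5 of the 8 members tested and raised none by the quasi-likelihood test of edgeR (adjusted p under 0.05): TCF21, TWIST2, PRRX1, TBX5 and PDGFRB. In the same comparison 28.9% of all genes were called lower and 23.9% higher, so 52.8% were called in all. The median log2 fold change was −0.41 over the 8 members and −0.05 over all genes. Without DMSO_siNT 4-2V, 4 members were called lower and 1 higher, against 30.3% and 27.9% of all genes. SMARCA4 knockdown in 4OHT cells lowered 3 members (TCF21, TBX5 and PDGFRB) and raised 1 (TWIST2), against 5.65% and 4.99% of all genes and 10.6% called in all; the median was −0.22 over the members and 0.01 over all genes. Without DMSO_siNT 4-2V, which is in neither arm but enters the estimate of spread, 4 were lower and 2 higher, against 12.9% and 11.7%. Both steps share the 4OHT_siNT libraries, and 2.05% of all genes were called lower in both and 1.4% higher in both. From DMSO_siNT to 4OHT_siSMARCA4, 4 members were lower and 1 was higher, where 27.3% of all genes were called lower, 23.3% higher and 50.5% in all. In this bulk RNA, fewer cells that express a gene and less RNA per cell cannot be told apart.

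**Figure D2:**
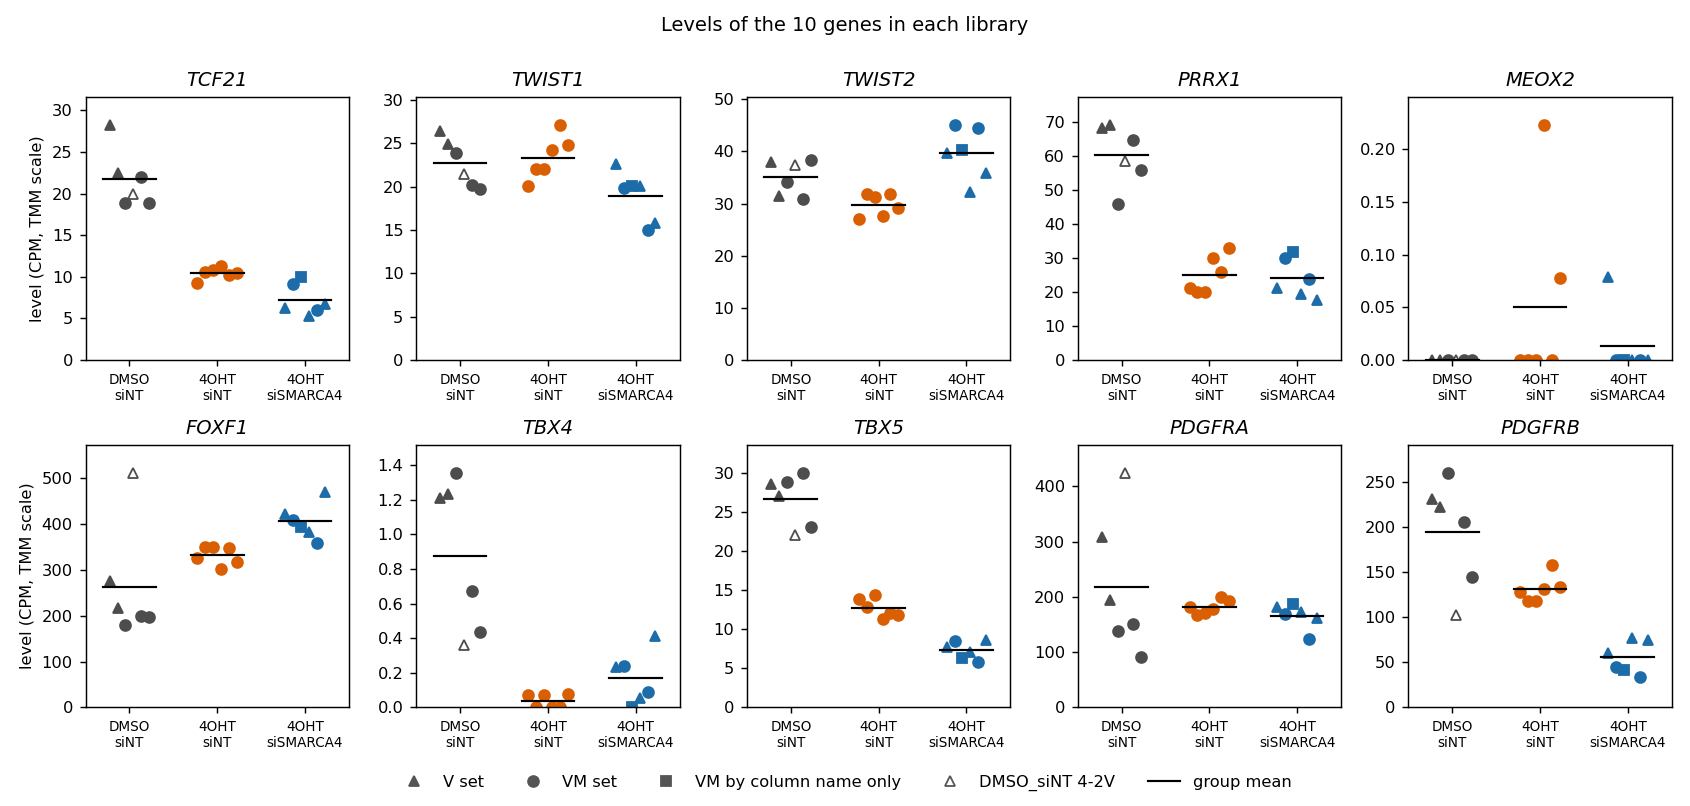
Level of each of the 10 genes in each of 18 libraries, in CPM on the TMM scale on axes that start at 0, with the mean of 6 libraries as a line; triangles are V sets, circles VM sets, the square the VM library 2-1VM without a matching title and the open triangle DMSO_siNT 4-2V. TBX5 separates all 3 groups, while PDGFRA and FOXF1 spread widely in DMSO_siNT, from 90.4 to 425 CPM and from 180 to 512 CPM.

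TCF21, a bHLH factor that binds DNA with E protein partners, ranged from 18.9 to 28.2 CPM in DMSO_siNT (median 21.0), from 9.25 to 11.4 CPM in 4OHT_siNT (median 10.5) and from 5.27 to 9.94 CPM in 4OHT_siSMARCA4 (median 6.53). The DMSO_siNT libraries lay above all others, where 33.8% of all genes did not overlap in either direction between DMSO_siNT and 4OHT_siNT and 29.6% between the end groups. The 4OHT groups overlapped in 1 knockdown library, 2-1VM (9.94 CPM), while the next, 2-3VM (9.08 CPM), was just below the 4OHT_siNT range. Senescence lowered TCF21 by 1.06 ± 0.15 on the log2 scale (a log2 fold change of −1.06, SE, edgeR adjusted p = 5.36e-06), to 48.05% of DMSO_siNT. Knockdown lowered it further, with a log2 fold change of −0.53 ± 0.15 (edgeR adjusted p = 0.0261). That second call was lost without 4OHT_siNT 4-1VM, 4OHT_siSMARCA4 2-3V or 4OHT_siSMARCA4 4-2VM (edgeR adjusted p = 0.0572, 0.0615 and 0.066). The knockdown value was −0.28 within siRNA number 2 alone and −0.85 within number 4 alone, neither called (edgeR adjusted p = 0.299 and 0.142). In a fit of all genes with at least 1 count it was −0.51 and was not called (edgeR adjusted p = 0.0552). The VM libraries with a title gave −0.48 (edgeR adjusted p = 0.0494), or −0.33 and not called with library 2-1VM added (edgeR adjusted p = 0.0912). TCF21 lies on chromosome 6 from 133889113 to 133895553 within the span of the antisense RNA gene TARID. TARID had 0 to 5 counts per library, and whether the counting used strand is not given.

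TWIST1 and TWIST2 are bHLH factors with nearly the same DNA-binding part. In the fit of all libraries TWIST1 was called in neither step, while TWIST2 was called lower with senescence and higher with knockdown. TWIST1 ranged from 19.7 to 26.4 CPM in DMSO_siNT, 20.03 to 27.1 CPM in 4OHT_siNT and 15.04 to 22.6 CPM in 4OHT_siSMARCA4, so that all groups overlapped. Its log2 fold change was 0.04 with senescence (95% interval −0.21 to 0.28, edgeR adjusted p = 0.817) and −0.30 with knockdown (−0.55 to −0.06, edgeR adjusted p = 0.104). Without DMSO_siNT 4-2V the knockdown value was −0.31 and was called (edgeR adjusted p = 0.0429), as it was in a fit of the 2 groups compared alone (−0.30, edgeR adjusted p = 0.0484). Within VM sets it was −0.43 and not called (edgeR adjusted p = 0.0511), or −0.36 and called with library 2-1VM added (edgeR adjusted p = 0.0387). TWIST2 ranged from 31.0 to 38.4 CPM in DMSO_siNT (median 35.8), 27.02 to 31.8 CPM in 4OHT_siNT (median 30.2) and 32.2 to 45.01 CPM in 4OHT_siSMARCA4 (median 40.01). Every knockdown library was above every 4OHT_siNT library, as in either direction for 11.4% of all genes. TWIST2 rose with knockdown by 0.41 ± 0.10 on the log2 scale (edgeR adjusted p = 0.0105), a 1.33-fold difference, and by 0.57 within VM sets (edgeR adjusted p = 0.00228) or 0.52 with library 2-1VM added (edgeR adjusted p = 0.000694). The call was lost within siRNA number 4 alone (0.32, edgeR adjusted p = 0.588), a fit that includes DMSO_siNT 4-2V. Its fall with senescence, −0.24 ± 0.10 (edgeR adjusted p = 0.0495), was lost when any 1 of 15 of the 18 libraries was left out, DMSO_siNT 4-2V included (edgeR adjusted p up to 0.124). The difference between the 2 genes was not tested.

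PRRX1, a paired-related homeobox factor of limb and lung mesenchyme, had the most negative fold change in senescence among the 8 members tested. It ranged from 45.9 to 69.2 CPM in DMSO_siNT (median 61.7), from 20.03 to 32.9 CPM in 4OHT_siNT (median 23.5) and from 17.8 to 31.9 CPM in 4OHT_siSMARCA4 (median 22.6). The DMSO_siNT libraries lay above all 4OHT libraries, and the 4OHT groups covered the same range. Of all genes, 33.8% did not overlap in either direction between DMSO_siNT and 4OHT_siNT, and 29.6% between DMSO_siNT and 4OHT_siSMARCA4. Its log2 fold change was −1.27 ± 0.17 with senescence (edgeR adjusted p = 2.55e-06) and −0.06 with knockdown (95% interval −0.40 to 0.29, edgeR adjusted p = 0.873). The knockdown value was 0.43 ± 0.17 within siRNA number 2 alone (edgeR adjusted p = 0.0876) and −0.56 ± 0.17 within number 4 alone (edgeR adjusted p = 0.286), neither called, and 0.10 within VM sets (edgeR adjusted p = 0.772). MEOX2, a homeobox factor of somite and vascular mesenchyme, had 0 counts in all DMSO_siNT libraries, 4 counts in 4OHT_siNT and 1 count in 4OHT_siSMARCA4. A count of 3 corresponded to at most 0.359 CPM in a library, and no difference in MEOX2 was detectable at this depth.

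FOXF1, a forkhead factor of visceral mesenchyme, was the tested member with positive fold changes in both steps. It ranged from 180 to 512 CPM in DMSO_siNT (median 209), from 301 to 351 CPM in 4OHT_siNT (median 337) and from 358 to 470 CPM in 4OHT_siSMARCA4 (median 401). DMSO_siNT 4-2V, at 512 CPM, was the highest library of all, and the other 5 DMSO_siNT libraries were below every 4OHT library. With senescence the log2 fold change was 0.33 ± 0.19 (95% interval −0.08 to 0.74, edgeR adjusted p = 0.159) with all libraries, 0.64 ± 0.10 without DMSO_siNT 4-2V (edgeR adjusted p = 1.2e-05) and 0.79 ± 0.09 within VM sets (edgeR adjusted p = 2.84e-06). With knockdown the 2 groups did not overlap, as in either direction for 11.4% of all genes. FOXF1 was 0.29 ± 0.19 higher (95% interval −0.12 to 0.70, edgeR adjusted p = 0.385), a value that was called only without DMSO_siNT 4-2V (0.28 ± 0.09, edgeR adjusted p = 0.0317) and in a fit of these 2 groups alone (0.29, edgeR adjusted p = 0.00946). Between the end groups FOXF1 rose by 0.62 ± 0.20 (edgeR adjusted p = 0.012) and by 0.92 without DMSO_siNT 4-2V. The call was lost in a fit of these 2 groups alone (0.60, edgeR adjusted p = 0.0573), within V sets (0.35, edgeR adjusted p = 0.509) and within siRNA number 4 alone (0.42, edgeR adjusted p = 0.38). Each of these fits includes DMSO_siNT 4-2V. Without that library, FOXF1 was called within VM sets (0.98, edgeR adjusted p = 3.8e-06) and within siRNA number 2 alone (0.87, edgeR adjusted p = 5.69e-05).

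TBX5, a T-box factor of lung bud and heart, separated all 3 groups without overlap, where 33.8% of all genes did so between DMSO_siNT and 4OHT_siNT, 11.4% between the 4OHT groups and 29.6% between the end groups. It ranged from 22.0 to 29.99 CPM in DMSO_siNT (median 27.8), from 11.4 to 14.4 CPM in 4OHT_siNT (median 12.4) and from 5.79 to 8.58 CPM in 4OHT_siSMARCA4 (median 7.42). The log2 fold change was −1.06 ± 0.12 with senescence (edgeR adjusted p = 2.91e-07), −0.79 ± 0.12 with knockdown (edgeR adjusted p = 0.000359) and −1.86 ± 0.12 from end to end (edgeR adjusted p = 1.87e-10), where 27.6% of the DMSO_siNT level was left. All 3 calls held without each of the 18 libraries in turn. The knockdown call was lost within siRNA number 4 alone (−0.74, edgeR adjusted p = 0.238), a fit that includes DMSO_siNT 4-2V. TBX4, the T-box factor expressed beside TBX5 in lung mesenchyme, was near the limit of detection. It had 17, 15, 19, 3, 9 and 6 counts in the DMSO_siNT libraries 2-1V, 2-2V, 2-2VM, 4-2V, 4-2VM and 4-3VM, at most 1 count in any 4OHT_siNT library and at most 5 in any 4OHT_siSMARCA4 library. The pooled counts of 69, 3 and 13 gave a ratio of 25.1 between DMSO_siNT and 4OHT_siNT (exact 95% counting interval 8.24 to 125) and of 5.55 between DMSO_siNT and 4OHT_siSMARCA4 (3.04 to 10.9). These intervals cover counting error only. In a fit of all genes with at least 1 count, TBX4 was called lower in both 4OHT groups than in DMSO_siNT (edgeR adjusted p = 2.27e-05 and 0.00185) and not between them (edgeR adjusted p = 0.202).

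PDGFRB, a receptor for PDGF-B and PDGF-D dimers, had the most negative fold change under knockdown among the 8 members tested. It ranged from 103 to 260 CPM in DMSO_siNT (median 214), from 118 to 158 CPM in 4OHT_siNT (median 130) and from 33.9 to 77.0 CPM in 4OHT_siSMARCA4 (median 52.9). The lowest DMSO_siNT library was 4-2V, the next was 4-3VM at 145 CPM inside the 4OHT_siNT range, and all knockdown libraries were below both other groups. Of all genes, 11.4% did not overlap in either direction between the 4OHT groups and 29.6% between the end groups. Knockdown lowered PDGFRB with a log2 fold change of −1.24 ± 0.22 (edgeR adjusted p = 0.00117), to 42.3% of 4OHT_siNT, and of −1.75 ± 0.20 within VM sets (edgeR adjusted p = 4.14e-05), or −1.72 with library 2-1VM added. The call was lost within siRNA number 4 alone (−1.21, edgeR adjusted p = 0.241), a fit that includes DMSO_siNT 4-2V. The 3 knockdown libraries of VM sets were at 33.9, 41.8 and 45.01 CPM and those of V sets at 60.8 to 77.0 CPM, while SMARCA4 itself was at 70.4 to 87.0 CPM in the VM and 92.7 to 141 CPM in the V libraries; its part in the result was not tested. With senescence PDGFRB fell by 0.57 ± 0.21 on the log2 scale (a log2 fold change of −0.57, edgeR adjusted p = 0.0319). This call was lost without any 1 of 9 libraries (DMSO_siNT 2-1V, 2-2V, 2-2VM or 4-2VM, or any 4OHT_siNT library but 4-2VM; edgeR adjusted p up to 0.0797) and within siRNA number 4 alone (−0.07, edgeR adjusted p = 0.889). The value was −0.96 within siRNA number 2 alone (edgeR adjusted p = 2.97e-05), −0.69 without DMSO_siNT 4-2V (edgeR adjusted p = 0.0024) and −0.63 within VM sets (edgeR adjusted p = 0.00238).

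PDGFRA, a receptor for PDGF-A and PDGF-C dimers among others, was not called in either step, and its direction in senescence depended on the sets. It ranged from 90.4 to 425 CPM in DMSO_siNT (median 173), from 167 to 200 CPM in 4OHT_siNT (median 180) and from 124 to 187 CPM in 4OHT_siSMARCA4 (median 171), and all groups overlapped. In DMSO_siNT the V libraries were at 195 to 425 CPM and the VM libraries at 90.4 to 151 CPM. The log2 fold change with senescence was −0.26 ± 0.26 (95% interval −0.80 to 0.28, edgeR adjusted p = 0.406) over all libraries, 0.05 without DMSO_siNT 4-2V (edgeR adjusted p = 0.842) and 0.53 ± 0.14 within VM sets, where PDGFRA was called higher (edgeR adjusted p = 0.00567). With knockdown it was −0.13 (95% interval −0.67 to 0.41, edgeR adjusted p = 0.806). PDGFRA lies on chromosome 4 from 54229280 to 54298245 and shares 3405 bases of its canonical exons with the span of another protein-coding gene on the same strand, so its counts may have been split.

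**Figure D3:**
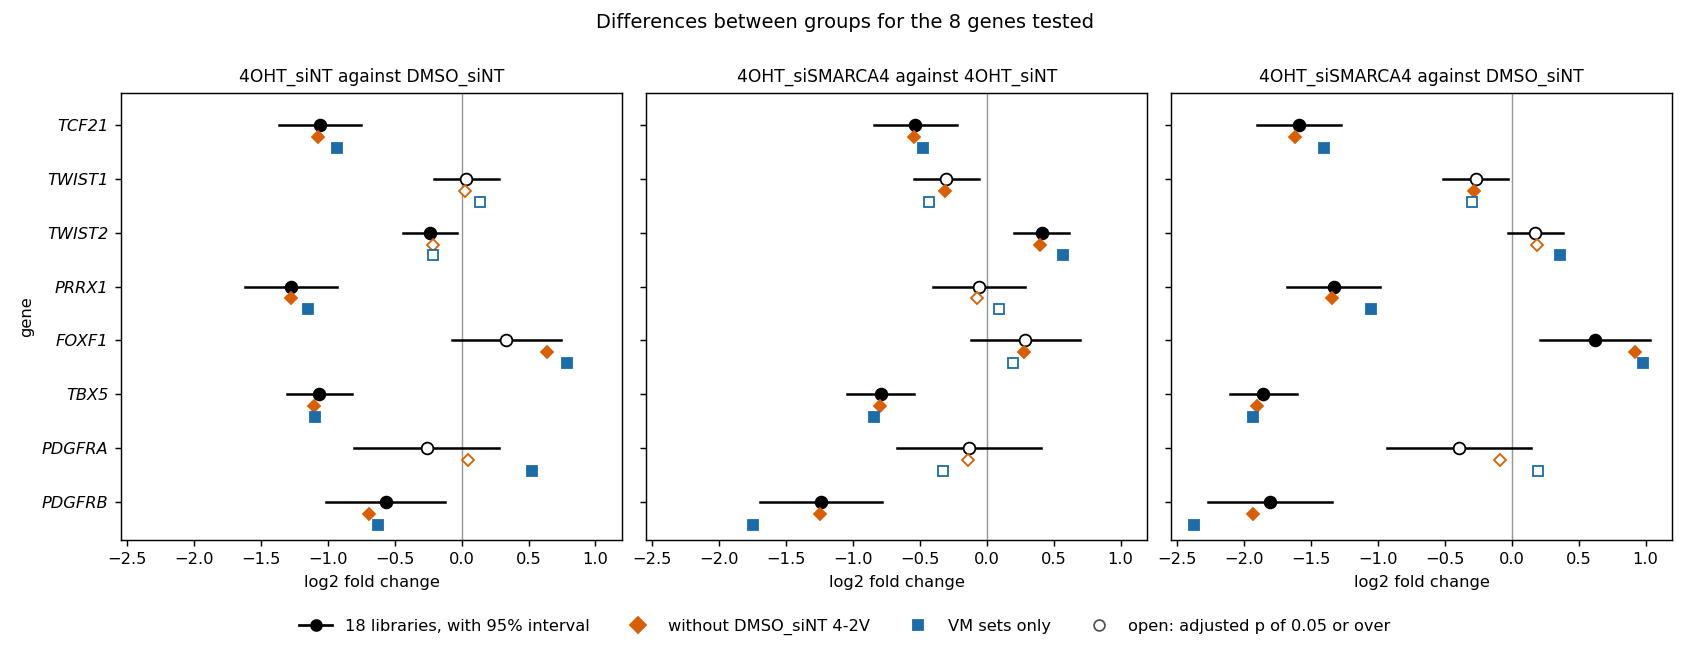
Log2 fold change of the 8 genes tested in each comparison of groups: circles with 95% intervals are the fit of 18 libraries, diamonds the fit without DMSO_siNT 4-2V and squares the fit of VM libraries with a title, filled where the edgeR adjusted p was under 0.05. TCF21, PRRX1 and TBX5 lie left of 0 in senescence in each fit, PDGFRB lies left of 0 in each panel, and PDGFRA moves from −0.26 to 0.53 between the fit of all libraries and that of VM sets.

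Between the siRNAs of each pair compared, both in 4OHT cells, no member was called at the adjusted threshold. The siNT pair in DMSO cells was not compared. There PDGFRB was at 222 to 260 CPM with siNT 2 and at 103 to 205 CPM with siNT 4, where 4-2V was the lowest. Between siNT 2 and siNT 4 in 4OHT cells (3 libraries each), 0 of 9 members were called by edgeR or DESeq2, and 0.0732% of all genes were called by edgeR. At an unadjusted p under 0.05 there was 1, PRRX1, at −0.54 with siNT 2 against siNT 4 (95% interval −0.93 to −0.15). Between siSMARCA4_2 and siSMARCA4_4, 0 of 9 members were called by edgeR or DESeq2, with 0.00732% of all genes by edgeR, and 3 had an unadjusted p under 0.05: TCF21 (0.51 higher with siSMARCA4_2, 95% interval 0.11 to 0.90), PRRX1 (0.46, 0.07 to 0.85) and TWIST1 (0.31, 0.04 to 0.57). For TBX5 the interval of this difference was −0.26 to 0.43 and for PDGFRB −0.88 to 0.25. Within siRNA number 2 alone the knockdown values were −0.87 ± 0.13 (SE) for TBX5 and −1.31 ± 0.13 for PDGFRB. Within number 4 alone they were −0.74 ± 0.20 and −1.21 ± 0.34. The number 4 fit includes DMSO_siNT 4-2V, which enters its estimate of spread. In that fit 4 of 13213 genes were called, and none of the members. For PRRX1 the knockdown values had opposite directions, 0.43 ± 0.17 within number 2 and −0.56 ± 0.17 within number 4, neither called.

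The genes whose profiles were most like those of the members were found by the root mean square difference of log2 CPM over 18 libraries, after each gene's DMSO_siNT mean was subtracted. The nearest to TCF21 was TIMP3, an inhibitor of metalloproteinases (difference 0.216), which went from 283 to 156 to 101 CPM over the 3 groups. The nearest to TBX5 were EFEMP2, an elastic fibre protein (0.207), and FCGRT, the neonatal Fc receptor (0.214), and the nearest to PRRX1 was MTURN (0.215). The nearest to PDGFRB were COL1A1, a chain of type I collagen (0.256), and LAMA5, a laminin chain (0.281). The nearest to TWIST2 was GSR, glutathione reductase (0.104), to TWIST1 NBR1 (0.136), to FOXF1 TMEM189 (0.168) and to PDGFRA ZNF578 (0.245). Among the members themselves, TCF21 was nearest to PRRX1 (0.284) and TBX5 (0.297), and TWIST1 and TWIST2 were each the nearest to the other (0.369).

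The ligands and other receptors of the PDGF system were examined next. Over all genes, 28.9% were called lower and 23.9% higher with senescence. With knockdown these shares were 5.65% and 4.99%, or 12.9% and 11.7% without DMSO_siNT 4-2V. Of the 4 ligand genes, PDGFD was called lower with senescence (9.79 to 1.62 CPM, log2 fold change −2.59, edgeR adjusted p = 1.49e-05) and PDGFA, PDGFB and PDGFC were not called; none was called with knockdown. KIT, the stem cell factor receptor and the only other class III receptor of 3 that was tested, fell from 13.6 to 0.342 CPM with senescence (−5.29, edgeR adjusted p = 4.92e-12). Of 16 immediate response genes of the PDGF and RAS-MAPK pathway, 14 rose with senescence, such as DUSP4 (3.83), DUSP6 (2.09) and EGR3 (3.73), and FOS (−0.67) and FOSL1 (−0.63) fell. With knockdown 1 of the 16 rose (IER3, 0.57) and 2 fell (DUSP4, −1.62, and EGR2, −1.06), and without DMSO_siNT 4-2V 1 rose and 6 fell.

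Partners and relatives of the transcription factors moved in both directions with senescence, where 28.9% of all genes were called lower and 23.9% higher. With knockdown these shares were 5.65% and 4.99%, or 12.9% and 11.7% without DMSO_siNT 4-2V. Of 7 genes for bHLH partners and ID inhibitors, 5 fell, among them ID2 (−3.73), ID4 (−2.15) and TCF4 (−0.67), and TCF3 rose (0.36); 0 were called with knockdown by edgeR or DESeq2, and ID2 had an unadjusted p under 0.05. ID proteins bind E proteins and keep bHLH factors off DNA. Of 6 tested paralogues, MSC (the relative of TCF21) rose by 1.91 and TBX3 by 1.05, and PRRX2 fell by 3.76 (a log2 fold change of −3.76); PRRX2 was the 1 called with knockdown, rising by 0.99. Of 12 hedgehog pathway genes tested, 2 rose with senescence (SHH, 3.31, and SUFU, 0.53) and 4 fell (SMO, GLI2, HHIP and GAS1, −1.48 to −0.78), and with knockdown HHIP (−2.33) and GLI3 (−0.65) fell. Of 4 repressors of the epithelial program, SNAI1 (0.88) and ZEB1 (1.04) rose and SNAI2 (−1.46) fell with senescence, and 0 were called with knockdown by edgeR or DESeq2, where ZEB1 had an unadjusted p under 0.05; without DMSO_siNT 4-2V, 2 were called lower.

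**Figure D4:**
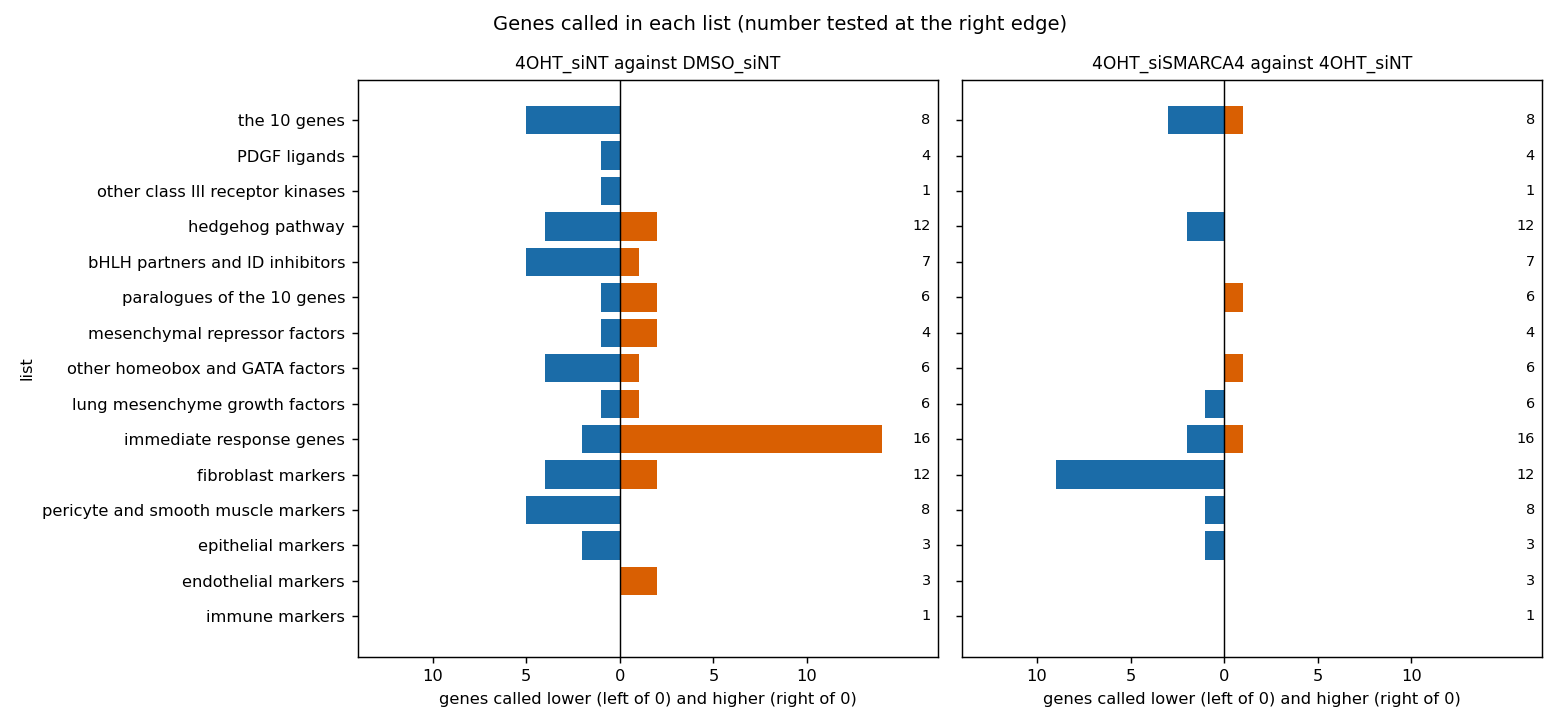
Number of genes called lower (bars left of 0) and higher (bars right of 0) by edgeR in each list in senescence (left) and knockdown (right), with the number tested at the right edge. In knockdown 9 of 12 fibroblast markers were lower and none higher, beside 3 lower and 1 higher of the 8 members tested. Of all genes, 5.65% were called lower and 4.99% higher in knockdown, and 28.9% and 23.9% in senescence.

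Genes of the matrix and of the cell surface that mark fibroblasts moved beside the members. Of all genes, 5.65% were called lower with knockdown, 12.9% without DMSO_siNT 4-2V and 12.2% within VM sets. With senescence 28.9% were called lower and 23.9% higher. With knockdown 9 of the 12 fibroblast markers fell (COL1A1, COL1A2, COL3A1, COL6A3, DCN, FN1, THY1, SPARC and POSTN, −1.46 to −0.66), with a median log2 fold change of −0.90 over the list. Without DMSO_siNT 4-2V or within VM sets 11 were called lower, 10 with library 2-1VM added to these, and 0 within siRNA number 4 alone, where 4 of 13213 genes were called in all. The summed level of the 12 markers was 27169 to 40017 CPM in 4OHT_siNT and 13570 to 25115 CPM in 4OHT_siSMARCA4, without overlap. With senescence 4 fell (COL1A2, DCN, LUM and THY1) and 2 rose (COL6A3 and POSTN). Of 8 pericyte and smooth muscle markers tested, 5 fell with senescence and MCAM (−1.15) fell with knockdown, and their sum was 351 to 1314 CPM in DMSO_siNT, 440 to 564 CPM in 4OHT_siNT and 245 to 423 CPM in 4OHT_siSMARCA4. Epithelial markers summed to 103 to 144, 62.4 to 78.9 and 34.1 to 57.1 CPM in the same order, and 2 of the 3 tested fell with senescence and 1 with knockdown. Endothelial markers summed to at most 16.3 CPM in any library, with 2 of 3 higher in senescence, and the 1 immune marker tested was not called. Their part in the results for the members was not tested.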

How the data were processed

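RNA from IMR90 ER:RAS cells was made by the authors into polyA-enriched directional libraries. Per the labels, reads were aligned with STAR 2.7.8a to hg38, and DESeq2 1.36.0 is listed among the submitters' processing notes. The counting program, its annotation and its strand setting are not given in the sources used here. The authors deposited 36 columns of whole-number counts by gene symbol, without normalization. The 2 lanes of each library were summed to 18 libraries. Of 29 labelled samples, 17 matched a library and 12 were not analysed here, and knockdown library 2-1VM, whose column name matched no title, entered its group without a sample.

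Genes were filtered with filterByExpr (minimum count 10), TMM-scaled and tested in R 4.3.3 by quasi-likelihood with edgeR 4.0.16, all 18 libraries in 1 fit without covariates, with Benjamini-Hochberg adjustment over all genes tested. SEs were derived from the F statistic. Single siRNAs were compared in a second fit that split each group by siRNA number, giving 6 levels. Fits were tested on simulated data. Pairs of libraries within a group differed by a chi-square per degree of freedom of at least 2.33, so none was counted as a duplicate. Alternatives were other scaling, DESeq2 1.42.0, no filter, the set name as a block, subsets by set, group or siRNA, and leaving out each library. Correlations of deviations between libraries of the same set were −0.286 to 0.299 over 15 pairs. VM sets and the block with library 2-1VM were added after seeing the data.

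The members, gene lists and motifs were chosen with earlier results of these data known. Genes named are the members, SMARCA4, ESR1, HRAS, list genes a sentence needs, and the 2 genes of most alike profile for each member. TARID and the RNAs FENDRR, TBX5-AS1 and TBX2-AS1 are outside this rule and were chosen with values known. Coordinates are from GENCODE version 44 on GRCh38, and the counts carry none.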

Additional observations from a re-analysis of the deposited data

Results flagged for a closer look

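In groups of 6 libraries, 33 sets of log2 CPM (11 genes in 3 groups) were examined for a library whose gap to its nearest neighbour exceeded Dixon's 95% critical share of the group's range, which chance gives in about 1 of 20 sets. PDGFRA in 4OHT_siSMARCA4 was 1 of the 4 found: library 4-2VM, at 124 CPM, lay below the others (162 to 187 CPM), with a gap of 0.662 of the range. ESR1 and HRAS in DMSO_siNT were far lowest in library 4-2V, with gaps of 0.936 and 0.853. HRAS in 4OHT_siSMARCA4 was lowest in library 4-3V, at 3231 CPM against a median of 4448 CPM, with a gap of 0.671. The causes were not tested.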

How the results depend on the processing

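Of 248 fold changes of members under other settings, 195 kept their direction and side of the threshold, and of 432 with a library left out, 394 did. By a rule that counted only large relative changes, the counts of members called moved in 4 of 41 settings. Smaller changes were counted as the same, such as 4 or 6 in place of 5 in senescence. The settings include the siRNA comparisons, in which no member was called. In senescence siRNA number 4 alone gave 3 in place of 5, with 4705 of 13213 genes called against 6935 of 13136 in the main fit. Leaving out single libraries gave 3 to 5. In knockdown the set name as a replicate block gave 0 in place of 4 and siRNA number 4 alone gave 0. The block called 236 of 13323 genes and siRNA number 4 alone 4 of 13213, against 1397 of 13136 in the main fit. Single libraries left out gave 3 to 6. From DMSO_siNT to 4OHT_siSMARCA4, siRNA number 2 alone gave 8 of 9 tested in place of 5 of 8, and single libraries left out gave 5 to 7. The fit of siRNA number 2 called 8160 of 13340 genes here, against 6635 of 13136 in the main fit. The block left out library 2-1VM and gave 4 in senescence and 5 from end to end, where 4356 and 4672 of 13323 genes were called. With knockdown it gave TCF21 −0.61, TWIST2 0.43, TBX5 −0.80 and PDGFRB −1.42 (edgeR adjusted p = 0.133, 0.174, 0.051 and 0.0539), and PDGFRB in senescence −0.39 (edgeR adjusted p = 0.328). With 2-1VM put in the set of its column name, a block chosen after seeing the data, 3 were called in knockdown (TWIST2 0.47, TBX5 −0.86 and PDGFRB −1.49, edgeR adjusted p = 0.0228, 0.00462 and 0.00535) and TCF21 was not (−0.44, edgeR adjusted p = 0.134). That block called 974 of 13136 genes in knockdown. Fibroblast markers called lower in knockdown were 1 with the first block and 6 with the second. Correlations between libraries of the same set were −0.286 to 0.299 over 15 pairs, and nothing in the labels says what a set shares.

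Directions reversed in senescence for PDGFRA (0.39 and 0.30 with the blocks without and with 2-1VM, 0.53 in VM sets, 0.52 in VM sets with 2-1VM, −0.41 to 0.0496 with single libraries left out) and TWIST1 (−0.22 with siRNA number 2, −0.00043 to 0.0875 with single libraries left out). In knockdown they reversed for FOXF1 (−0.0105 with the block without 2-1VM), PRRX1 (0.10, 0.43, 0.18 and 0.0905 in VM sets, siRNA number 2, VM sets with 2-1VM and the block with 2-1VM, −0.17 to 0.0297 with single libraries left out) and PDGFRA (0.0413 with siRNA number 2), and from end to end for PDGFRA (0.20 in VM sets and 0.32 with 2-1VM). None of these main values was called. The causes were not tested. Depth limited TBX4 and MEOX2, and V sets of 4OHT_siNT were not analysed here.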

Other observations

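Long noncoding RNAs of the FOXF1 locus and of T-box genes are given as values. FENDRR, which is transcribed divergently from the FOXF1 locus, was 0.61 ± 0.14 higher on the log2 scale in 4OHT_siSMARCA4 than in DMSO_siNT (SE, edgeR adjusted p = 0.00141), and was not called in either step (0.26 and 0.35, edgeR adjusted p = 0.137 and 0.126). TBX5-AS1, antisense to TBX5, was lower with senescence (log2 fold change −0.58 ± 0.20, edgeR adjusted p = 0.0189) and with knockdown (−0.93 ± 0.20, edgeR adjusted p = 0.00554). TBX2-AS1, named after TBX2, which is not a member, was lower with senescence (−0.83 ± 0.30, edgeR adjusted p = 0.0277). It was not called with knockdown (−0.65, edgeR adjusted p = 0.21). Reads of antisense partners cannot be told apart if the counting did not use strand.

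Among homeobox and GATA factors of other mesenchyme, 6 of 12 were tested. Of all genes, 28.9% were called lower and 23.9% higher with senescence, and 5.65% and 4.99% with knockdown. With senescence GATA6, OSR1, OSR2 and EBF1 fell (−1.83 to −0.99) and MSX2 rose (0.72). With knockdown GATA6, a zinc finger factor of lung and heart, was the 1 called, rising by 1.57 from 1.55 to 4.62 CPM (edgeR adjusted p = 6.47e-05). Of 6 lung mesenchyme growth factor and surface genes tested, FGF7 fell (−1.91) and WNT5A rose (0.78) with senescence, and INMT fell with knockdown (−1.29, edgeR adjusted p = 0.047).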
